A study of Mus musculus with 14 samples.

Results

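The 4 genes of the Ikaros family, Ikzf1, Ikzf2, Ikzf3 and Ikzf4, were examined as windows of the mouse genome (build mm39) in 10 lists of CUT&Tag peaks from regulatory T cells. A fixed interval was taken for each gene: chr1:69550000-69750000 for Ikzf2, chr10:128455000-128500000 for Ikzf4, chr11:11615000-11740000 for Ikzf1 and chr11:98340000-98460000 for Ikzf3. The windows were drawn by gene position and not by a threshold on a measured value, although the family was picked for study with earlier results of these data known. They held 583 of the 163515 H3K27ac peaks in the lists and 0 of the 145621 H3K27me3 peaks. After the peaks of all libraries were merged, they held 83 of 37573 H3K27ac regions and 0 of 63341 H3K27me3 regions. The extent of the windows was not checked against an annotation of mm39. In the RefSeq table at hand, which is of another build (GRCm38.p6), the gene is 156145 bp long for Ikzf2, 38833 bp for Ikzf4, 87969 bp for Ikzf1 and 81422 bp for Ikzf3, which comes to between 67.9% and 86.3% of the window length. The coding neighbours there are Erbb4 and Spag16 for Ikzf2, Rps26 and Suox for Ikzf4, 4930512M02Rik and Fignl1 for Ikzf1, and Grb7 and Zpbp2 for Ikzf3. Suox lies 215 bp from Ikzf4, so that a peak at that end cannot be given to 1 of the pair. Rps26 lies 4332 bp from Ikzf4, and Grb7 and Zpbp2 lie 9236 and 5065 bp from Ikzf3. By these lengths, Ikzf3 with both gaps is shorter than its window of 120001 bp. The same holds for Ikzf4 and its window of 45001 bp. Parts of these 2 windows thus lie in or beyond neighbouring genes. Values given for a gene below are those of its window.

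Ikaros family proteins are zinc finger transcription factors of lymphocytes. Zinc fingers near the N-terminus bind DNA at sites built around GGGAA, and a pair of fingers near the C-terminus joins family members into dimers. The family recruits chromatin complexes such as NuRD, which removes acetyl groups from histones. Ikaros, from Ikzf1, is needed for lymphocyte development. Helios, from Ikzf2, is present in most regulatory T cells and helps to keep their identity stable. Eos, from Ikzf4, is a partner of Foxp3, the transcription factor that defines these cells, in gene silencing. Aiolos, from Ikzf3, is a factor of B cells and of several T cell states.

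CUT&Tag uses an antibody to bring a transposase to a histone mark, so that DNA beside the mark is released and read. Acetylated lysine 27 of histone H3 (H3K27ac) is found at promoters and enhancers in use, while trimethylation of the same lysine (H3K27me3) is laid down by Polycomb and goes with repression. The knockout samples came from chimeras labelled Foxp3YFP-Slc31a1△;wt and the controls from chimeras labelled Foxp3YFPcre;wt. Both genotypes thus carry the Foxp3-driven YFP, and Cre made from Foxp3 acts in cells that express Foxp3. Cells were sorted with 140000 cells per sample. Slc31a1 encodes the copper importer CTR1. Peaks were listed for H3K27ac in 3 knockout and 3 control libraries and for H3K27me3 in 2 knockout and 2 control libraries, and the 4 IgG samples were not analysed here. The labels give no age, and they do not say what cells the chimeric hosts retained. The regulatory T cell identity was not checked against marker genes, because no annotation of mm39 was used.

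The H3K27ac lists covered 42.1, 47.2 and 37.7 Mb in knockouts 1 to 3, against 43.3, 42.3 and 43.0 Mb in controls 1 to 3. Read back from the peak statistics, depth was 9.10 to 11.0 fragments per kb in the knockouts and 8.49 to 12.4 in the controls. The background library behind each list had 20.6 fragments per kb in all 3 knockout lists, against 13.1 to 16.1 in the controls. The H3K27me3 list of knockout 1, from chimera 1, also had a background of 20.6 fragments per kb. The labels hold 1 knockout IgG sample, and they do not say whether 1 library served all these knockout lists. No test of these values as replicates is therefore given. In every peak call below, the background library and the genotype cannot be told apart. Across the genome, H3K27ac peaks were also wider in the knockouts, with a median width of 901 to 1063 bp in the knockouts and 812 to 846 bp in the controls. Among the H3K27me3 lists, control 1 stood apart with 4.89 Mb, against 30.6 and 62.8 Mb in the knockouts and 40.5 Mb in control 2. Its peaks had a −log10 p of 2.0 to 7.2, while the other 3 lists start at 9.0, so the lists were not cut at 1 threshold.

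Of the 4 genes, Ikzf1 has promoter entries in the RefSeq table of GRCm38.p6. They are shown because the broadest acetylated domain of the family lies in the Ikzf1 window and because GGGAA is the core of the sites that the family binds. Each runs 5′ to 3′ on the plus strand from 250 bases before a gene start to 50 after it, and capitals mark GGGAA or its reverse complement TTCCC. Their place in mm39 was not determined, so neither was tied to a peak.
Ikzf1 promoter, chr11:11685675-11685974 of GRCm38.p6: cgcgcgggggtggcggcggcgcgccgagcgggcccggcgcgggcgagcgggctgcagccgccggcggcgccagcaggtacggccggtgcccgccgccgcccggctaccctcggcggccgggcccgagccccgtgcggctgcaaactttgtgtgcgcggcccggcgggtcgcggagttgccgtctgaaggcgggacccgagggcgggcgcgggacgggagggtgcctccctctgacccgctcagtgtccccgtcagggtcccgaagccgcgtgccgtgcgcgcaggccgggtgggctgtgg
Ikzf1 promoter, chr11:11689927-11690226 of GRCm38.p6: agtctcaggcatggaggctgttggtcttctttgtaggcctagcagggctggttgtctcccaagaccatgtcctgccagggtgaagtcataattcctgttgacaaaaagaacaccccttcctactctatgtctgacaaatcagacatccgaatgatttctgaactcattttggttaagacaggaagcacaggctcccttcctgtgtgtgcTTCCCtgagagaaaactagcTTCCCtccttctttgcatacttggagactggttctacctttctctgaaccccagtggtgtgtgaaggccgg
The first is 81.3% G and C and holds no match. The second is 49% G and C and holds 2 matches. A match on either strand occurs in 62.7% of the 32851 promoters of that table, so a match is common and is given as a description only.

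All 4 windows held broad H3K27ac coverage in every library of both genotypes. Averaged over 3 libraries each, 64.7% of the Ikzf1 window was under H3K27ac peaks in knockouts and 61.2% in controls. For Ikzf2 it was 57.7% in knockouts and 51.1% in controls, and for Ikzf3 49.3% in knockouts and 42.3% in controls. The Ikzf4 window was least covered, with 36.6% in knockouts and 32.3% in controls. The order Ikzf1, Ikzf2, Ikzf3, Ikzf4 held in each of the 6 libraries. The windows leave different amounts of flanking sequence around each gene, which enters these shares.

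**Figure D1:**
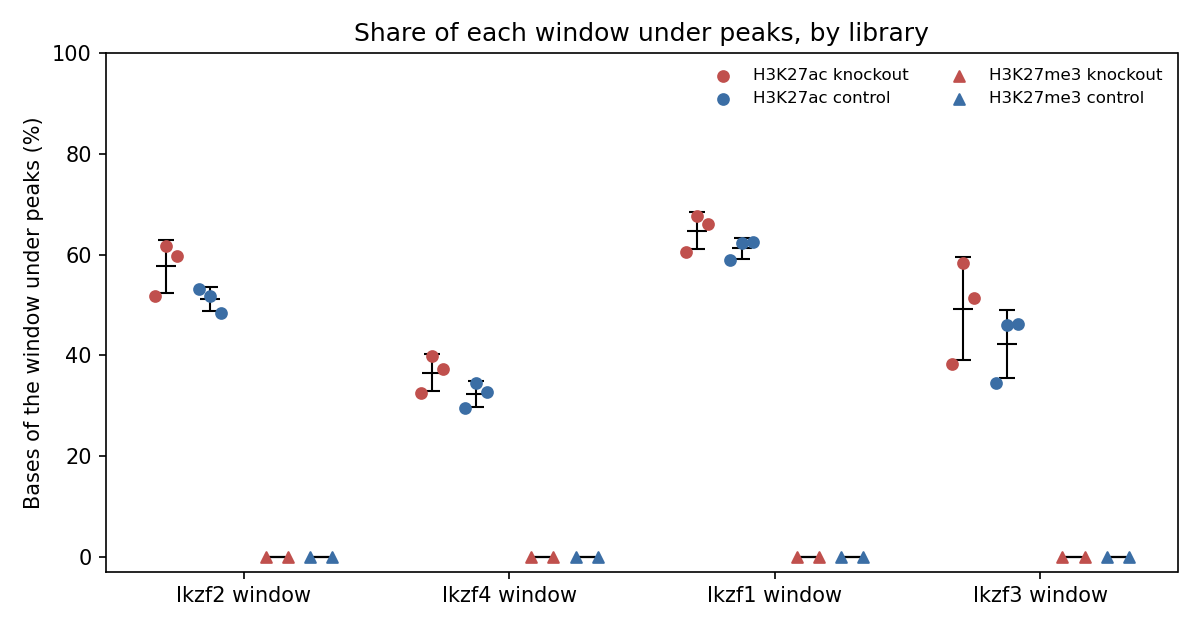
Percent of the bases of each window under peaks (y axis), for H3K27ac (circles, 3 knockout and 3 control libraries) and H3K27me3 (triangles, 2 and 2); red is knockout, blue is control, black bars are mean ± SD. Knockout and control libraries overlap in each window for H3K27ac, and the H3K27me3 lists are at 0 in each window.

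Helios, encoded by Ikzf2, had 103452, 123364 and 119220 bases of its window under H3K27ac peaks in knockouts 1, 2 and 3, against 106267, 103624 and 96953 bases in controls 1, 2 and 3. Knockouts 2 and 3 lay above every control, and knockout 1 lay below controls 1 and 2 and above control 3. The means were 115345 ± 10506 bases for knockouts and 102281 ± 4800 for controls (SD over 3 libraries), which is 12.8% more in knockouts, and this did not pass the two-sided exact permutation test (p = 0.3, where 3 against 3 libraries cannot go below 0.1). The covered stretch was cut into fewer peaks, 54, 43 and 38 in the knockouts, against 67, 50 and 54 in the controls (exact permutation p = 0.3). The widest single peak measured 14834, 23207 and 18529 bp in the knockouts, against 12480, 12081 and 12101 bp in the controls. All 3 knockouts were above all 3 controls, and the exact permutation p of 0.1 is the smallest possible. Over the whole lists, peaks of at least 10 kb numbered 206, 501 and 365 in the knockouts, against 172, 287 and 283 in the controls. Of all H3K27ac regions of at least 10 kb found in every library, 74.1% held fewer peaks in the knockouts.

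The window of Ikzf4, which encodes Eos, had 14619, 17922 and 16815 bases under H3K27ac peaks in the knockouts, against 13324, 15539 and 14762 bases in the controls. The groups overlapped, because knockout 1 was below controls 2 and 3. The means were 16452 ± 1681 bases for knockouts and 14542 ± 1124 for controls (SD over 3 libraries, exact permutation p = 0.3). The longest block, chr10:128469745-128483941, had 12747, 14074 and 13766 covered bases in the knockouts, against 12257, 13433 and 12816 in the controls. Its mean of 13529 bases in knockouts and 12835 in controls accounts for the lesser share of the difference between the window means. It was 1 unbroken peak in knockouts 2 and 3 and was split into 2 peaks in knockout 1 and in all 3 controls.

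Ikaros itself, encoded by Ikzf1, had the most complete coverage, with 75668, 84465 and 82553 bases in the knockouts, against 73574, 77921 and 78109 bases in the controls. Knockouts 2 and 3 were above every control, and knockout 1 lay between control 1 and the other controls. The means were 80895 ± 4627 bases for knockouts and 76535 ± 2566 for controls (SD over 3 libraries, exact permutation p = 0.3). The window holds 1 domain of 60226 bp, chr11:11632782-11693007, the sixth longest of the 13106 H3K27ac regions found in every library of the series. Peaks covered nearly all of it in each library, with 57895, 60147 and 59395 bases in the knockouts, against 57030, 59141 and 58629 bases in the controls. The domain was called as 4, 1 and 2 peaks in the knockouts, against 6, 3 and 4 peaks in the controls.

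The window of Ikzf3, which encodes Aiolos, varied most between libraries. It had 45808, 69877 and 61696 bases under H3K27ac peaks in the knockouts, against 41452, 55332 and 55489 bases in the controls. Knockout 1 and control 1, both from chimeras numbered 2, were far below the other libraries of their genotype. The means were 59127 ± 12238 bases for knockouts and 50758 ± 8059 for controls (SD over 3 libraries, exact permutation p = 0.4). The longest Ikzf3 block, chr11:98372601-98392325, had 13094, 18587 and 17756 covered bases in the knockouts, against 13607, 16751 and 17336 in the controls.

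Over all 4 windows, peaks covered 271820 ± 28983 bases of knockouts and 244115 ± 8960 bases of controls (SD over 3 libraries, exact permutation p = 0.3). Scaled to the bases covered by the whole list, Ikzf2 held 2455, 2614 and 3166 bases per Mb of list in the knockouts, against 2452, 2451 and 2254 in the controls. On that scale each Ikzf2 knockout was above each control, knockout 1 only just (exact permutation p = 0.1). The groups overlapped on that scale for the other genes, with an exact permutation p of 0.2 for Ikzf4, 0.6 for Ikzf1 and 0.4 for Ikzf3. For Ikzf1 the values were 1795, 1790 and 2192 bases per Mb in the knockouts, against 1698, 1843 and 1816 in the controls, so that knockouts 1 and 2 were below controls 2 and 3.

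**Figure D2:**
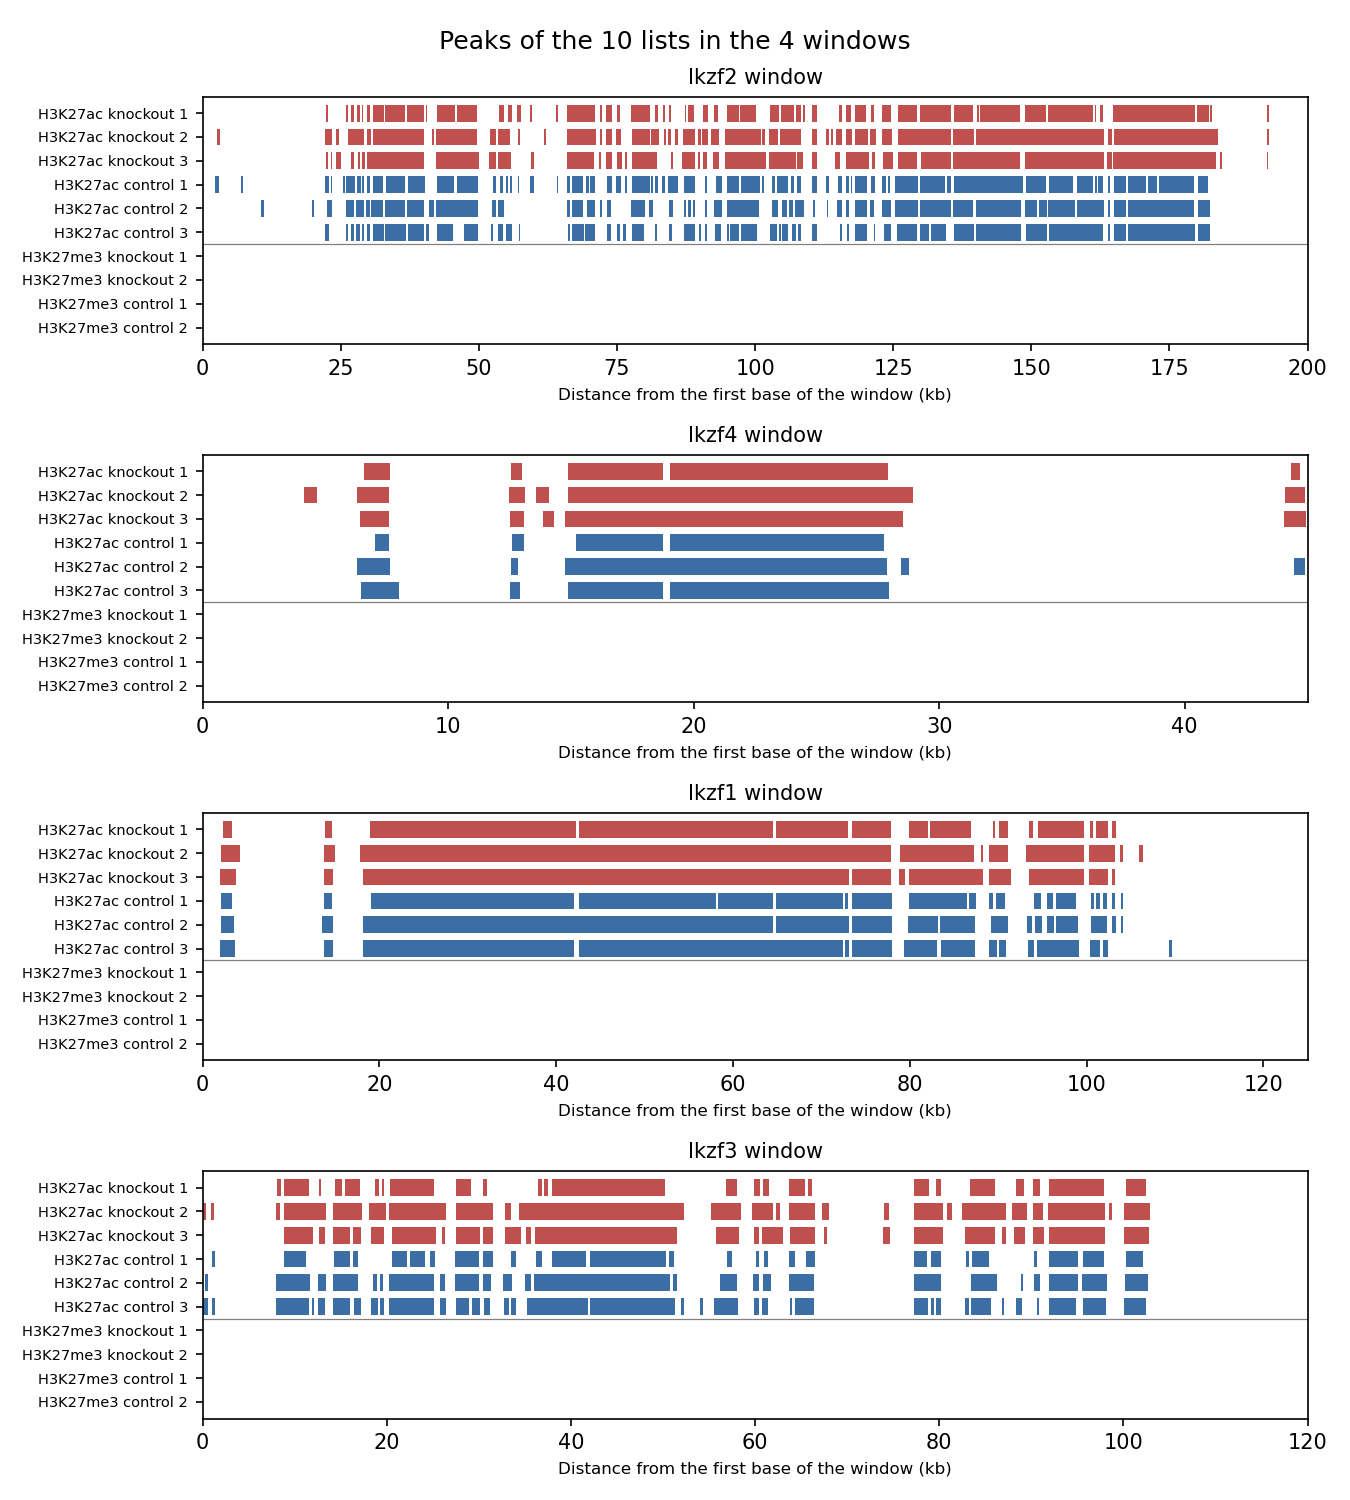
Peaks of each of the 10 lists along the 4 windows (x axis, kb from the first base of the window; one row per list; red knockout, blue control). H3K27ac blocks recur in all 6 libraries, and the 4 H3K27me3 rows are empty in each window.

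Of the 83 H3K27ac regions, 45 were found in every library (54.2%, against 34.9% of all H3K27ac regions). By gene these were 22 of 45 regions for Ikzf2, 3 of 6 for Ikzf4, 7 of 10 for Ikzf1 and 13 of 22 for Ikzf3. A further 13 regions were in 1 library, 7 of these in a knockout. Regions at least 10 kb long and present in every library numbered 4 for Ikzf2 and 1 for each other gene. By base, 55.9% of the Ikzf1 window, 39.3% of the Ikzf2 window, 29.1% of the Ikzf3 window and 29.0% of the Ikzf4 window were under peaks in all 6 lists. The mean Jaccard index of covered bases was 0.796 for library pairs of the same genotype and 0.768 for pairs of different genotype in the Ikzf2 window. For Ikzf4 these were 0.860 and 0.845, for Ikzf1 0.915 and 0.904, and for Ikzf3 0.730 and 0.725. The ranges of same-genotype and mixed pairs overlapped in each window.

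A single region was found in every knockout and in no control, against 0.809% of all H3K27ac regions with that pattern, and 0 regions were found in every control and no knockout, against 2.66% of all. The knockout region lies in the Ikzf2 window at chr1:69742610-69743091. It had 443, 346 and 308 covered bases in the knockouts and none in the controls. At its summit 22, 20 and 15 fragments piled up in the knockouts, which is 8.62, 6.57 and 6.24 times the genome background of those libraries. These heights are below 20.9 times background, the median height of the 45 regions found in every library, and since a control list holds no row there, its fragment count is unknown.

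The shared regions were longer in the knockouts more often than shorter. Mean covered length was greater in knockouts for 39 of the 45 shared regions, against 58.6% of all 13106 shared regions. For regions of at least 5 kb the count was 17 of 17, against 68.4% of all such regions. The count of 39 ranged between 33 and 43 when 1 library was left out. Without knockout 2 it was 33 of 45, while the share over all shared regions was then 48.3%. The 45 regions held 87, 56 and 62 peaks in the knockouts, against 104, 82 and 95 in the controls, so that knockout 1 had more than control 2. In sum these were 205 peaks in knockouts and 281 in controls, against 49502 in knockouts and 55168 in controls over all shared regions.

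Every knockout covered more bases than every control in 9 of the 45 shared regions, which is 20% of them (background 12.0%), and every knockout covered fewer in 0 (background 7.16%). Of these 9 regions 7 lay in the Ikzf2 window, 1 in that of Ikzf1 and 1 in that of Ikzf3. Of the 12 strongest shared regions, 3 for each gene, 3 had every knockout above every control. The Ikzf2 block chr1:69714863-69733716 had 17267, 18784 and 18529 covered bases in the knockouts, against 15464, 16380 and 16454 in the controls. The Ikzf1 region chr11:11708136-11714715 had 5805, 6578 and 6226 bases in the knockouts, against 3757, 4641 and 5487 in the controls. The Ikzf3 region chr11:98431838-98438186 had 6017, 6196 and 6088 bases in the knockouts, against 5397, 5814 and 5466 in the controls. In the other 9 the groups overlapped. In the Ikzf2 block chr1:69685915-69713138 knockout 1, with 23829 bases, was below all controls, against 26847 and 26326 bases in knockouts 2 and 3 and 24743, 24979 and 25219 in the controls. The Ikzf1 region chr11:11693773-11703328 had 6698, 8608 and 9042 bases in the knockouts, against 7302, 7208 and 7547 in the controls, again with knockout 1 lowest of all. The Ikzf3 region chr11:98360196-98366399 had 4792, 6204 and 5175 bases in the knockouts, against 3834, 5353 and 5429 in the controls. The Ikzf2 region chr1:69579479-69590173 had 9244, 10119 and 10351 bases in the knockouts, against 8921, 9485 and 9229 in the controls. In the Ikzf4 window, chr10:128461271-128462985 had 1055, 1337 and 1152 bases in the knockouts, against 583, 1374 and 1553 in the controls. Its neighbour chr10:128467495-128468139 had 449, 645 and 561 bases in the knockouts, against 484, 259 and 393 in the controls. Chosen after its values were seen, the Ikzf2 region chr1:69615869-69621170 was 1 peak in each knockout, with 5010, 5232 and 4951 bases, and was broken into 4, 3 and 3 peaks in the controls, with 3927, 3672 and 4000 bases. The count of 9 is unstable: without knockout 1 it was 30, where the share over all shared regions was 23.4%, and without control 2 it was 15 (16.0%).

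In 10 kb bins fitted across the genome, no bin of the 4 windows passed the test. Of 19295 bins tested with limma, 44 lay in the windows, and 0 passed an adjusted p of 0.05 in either direction (background 2.25% lower and 0.580% higher in knockouts). That background rests on single libraries: 435 bins were lower and 112 higher, against 0 and 0 without control 2 or control 3, and 974 and 245 without knockout 1. At an unadjusted p under 0.05, 5 of the 44 were higher in knockouts and 0 lower, against 1155 higher and 2094 lower of all 19295. The log2 change, knockout over control in log2(bases + 100), was positive in 36 of 44 window bins, with a median of 0.12. Over all tested bins it was positive in 44.5%, with a median of -0.046. Restricted to bins with a mean of at least 5000 covered bases, 21 of 26 window bins were positive with a median of 0.049, against 57.9% and 0.024 over all 2356 such bins. Every knockout was above every control in 11 of the 44 bins (background 9.64%) and below in 0 (background 12.4%). That background holds many thinly covered bins. With a mean of at least 5000 covered bases, the counts were 7 above and 0 below of 26 window bins. Over all 2356 such bins they were 294 above and 160 below. The sign of the median log2 change of the 44 window bins rests on 1 library, since without knockout 3 it was -0.026. In that setting 18 of 44 window bins were positive, against 46.5% of all bins. With lists cut to equal length 26 of 43 were positive, against 44.7% of all. Without knockout 1 it was 41 of 44, against 44.9% of all.

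Single bins with an unadjusted p under 0.05 were chosen after their values were seen. The Ikzf2 bin from chr1:69610001 had 4357, 4531 and 4132 covered bases in the knockouts, against 3383, 2717 and 3053 in the controls, a log2 change of 0.47 ± 0.13 (SE) with a limma adjusted p of 0.106. The Ikzf2 bin from chr1:69730001 had 2433, 3716 and 3720 bases in the knockouts, against 1859, 2056 and 2056 in the controls (limma adjusted p = 0.177). Without knockout 1 this bin passed, with an adjusted p of 0.0460. The bin with the lowest adjusted p, 0.0712, starts at chr1:69740001 and holds nothing but the knockout-only region of Ikzf2. In Ikzf1 the bin from chr11:11710001 had 6897, 7919 and 7294 bases in the knockouts, against 4815, 5765 and 5877 in the controls (limma adjusted p = 0.169, and 0.0469 with quantile normalization). In Ikzf3 the bin from chr11:98420001 had 3700, 7293 and 5383 bases in the knockouts, against 2256, 3369 and 3666 in the controls (limma adjusted p = 0.224). In these 5 bins the knockouts were all above the controls. None passed the adjustment over the genome in the centred fit of all 6 libraries.

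**Figure D3:**
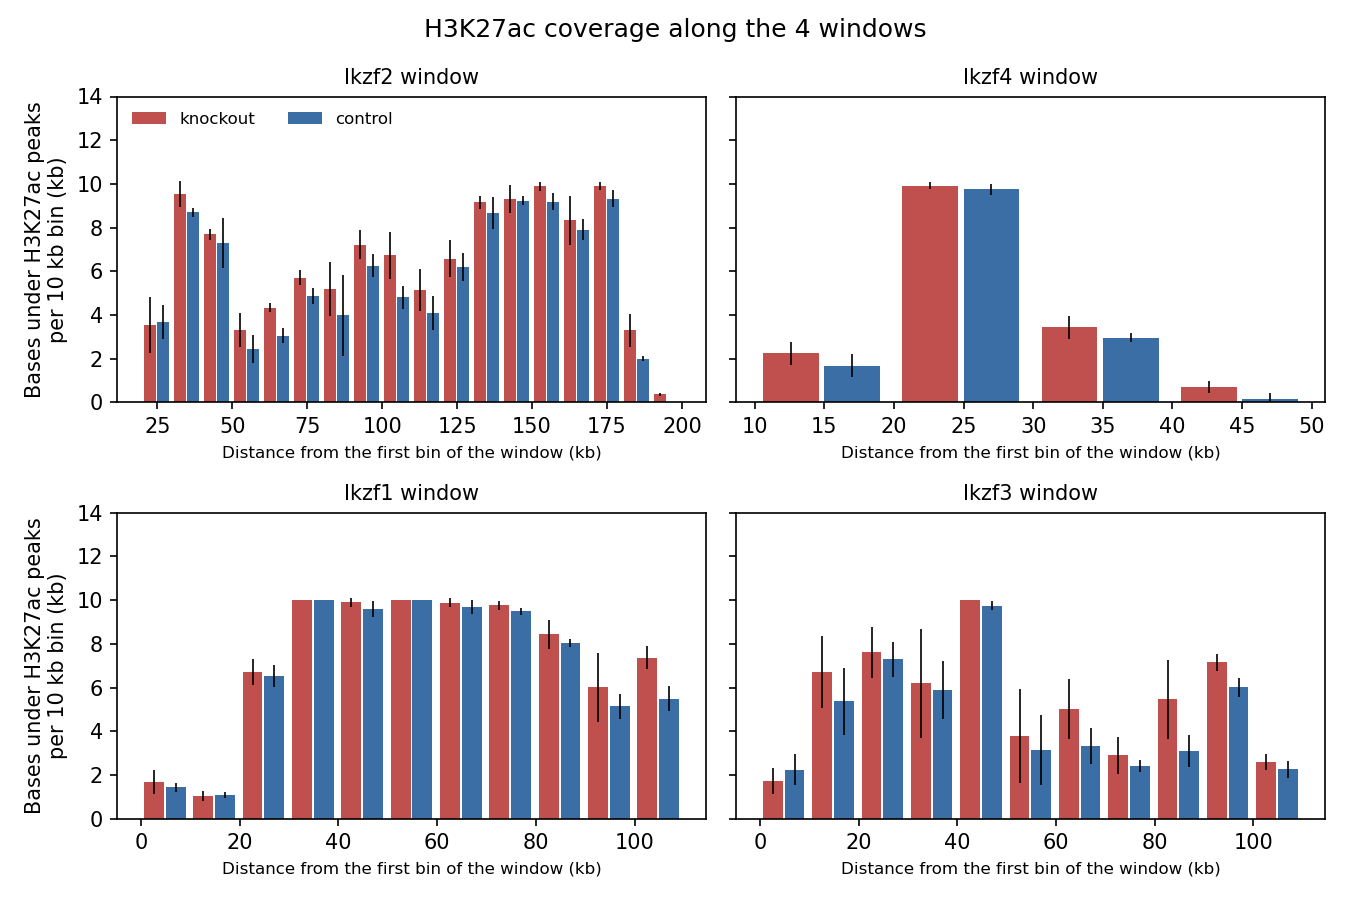
Bases under H3K27ac peaks per 10 kb bin (y axis, kb) along each window (x axis, kb from the start of the bin that holds the window's first base); bars are means of 3 knockout (red, left of each pair) and 3 control (blue, right) libraries, with SD, for the 44 tested bins. The log2 change is positive in 36 of the 44 bins (18 of 44 without knockout 3), and none passed the test.

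Coverage says where a peak was called and not how high it was, so the height of each summit was read back as fragments over the genome background of its library. The highest Ikzf1 summit stood at 142, 178 and 139 times background in the knockouts, against 140, 149 and 188 times in the controls (153 ± 22.0 and 159 ± 25.6, SD, n = 3 each, exact permutation p = 0.6). The highest Ikzf4 summit stood at 90.9, 121 and 102 times in the knockouts, against 87.2, 88.1 and 121 times in the controls (exact permutation p = 0.6, n = 3 each). For Ikzf3 the values were 112, 106 and 90.3 times in the knockouts, against 101, 92.9 and 110 times in the controls (exact permutation p = 0.9, n = 3 each). These groups overlapped for all 3 genes. The highest Ikzf2 summit stood at 61.5, 67.3 and 62.4 times in the knockouts, against 67.7, 70.4 and 80.1 times in the controls. It lay in chr1:69579479-69590173, except in knockout 3 and control 1, where it lay in chr1:69714863-69733716. Within the first region alone, heights were 61.5, 67.3 and 61.6 times in the knockouts, against 66.3, 70.4 and 80.1 times in the controls. There the groups overlapped (limma adjusted p = 0.932). For the highest summit of each library, wherever it lay, the knockouts were all below the controls (63.7 ± 3.12 and 72.7 ± 6.50, SD, n = 3 each, exact permutation p = 0.1, the smallest possible). This difference depends on the scale: in fragments at the same summits the means were 171 ± 29.9 in knockouts and 170 ± 24.0 in controls (exact permutation p = 1, n = 3 each).

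The summits of a shared region spanned a median of 446 bp over the 6 libraries, from 2 to 17544 bp, and lay within 100 bp in 6 of the 45 regions. The regions with the closest summits were chosen after their values were seen. In the Ikzf3 region chr11:98440014-98442889 the 6 summits lay between positions 98442117 and 98442119. In the Ikzf1 domain they lay within 71 bp, between 11676434 and 11676505, although the domain is 60226 bp long. In the Ikzf2 region chr1:69579479-69590173 they lay within 6 bp. The span was 17544 bp in the Ikzf2 block chr1:69685915-69713138, 13122 bp in the Ikzf2 block chr1:69714863-69733716, 6193 bp in the long Ikzf4 block and 4335 bp in the long Ikzf3 block.

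The median height of the 45 shared regions was 20.9 times background, against 33.5 times for all 13106 shared regions. By gene it was 13.7 times for the 22 regions of Ikzf2, 20.9 for Ikzf1, 25.7 for Ikzf3 and 26.9 for Ikzf4. Coverage of the family was thus broad, and its typical shared summit was lower than that of shared regions in general. The peak with the lowest p in each window still ranked high, above 90.7% to 99.8% of the peaks of its list. Across the 45 shared regions, 0 summit heights passed the limma test in either direction (background 0.298% lower and 0.0534% higher in knockouts). At an unadjusted p under 0.05 there were 0 of the 45, against 730 higher and 815 lower of all 13106. The median log2 change of height was 0.061, against 0.040 over all 13106 shared regions, and 26 of 45 were positive, against 56.7% of all. Without centring of the libraries the median over all regions was -0.075 and that of the 45 was -0.053, so the sign depends on the scaling. Within genes the centred median was -0.045 for Ikzf2 (7 of 22 positive), 0.20 for Ikzf4 (3 of 3), 0.14 for Ikzf1 (5 of 7) and 0.13 for Ikzf3 (11 of 13). After centring, every knockout was above every control in 1 region (background 8.81%) and below in 1 (background 8.60%). The largest positive change, picked after the values were seen, was 0.56 ± 0.27 (SE) at the Ikzf3 region chr11:98422500-98427267 (limma adjusted p = 0.456), with heights of 20.0, 31.5 and 24.6 times background in the knockouts, against 14.9, 18.7 and 21.8 in the controls. Its groups overlapped, and without knockout 1 its limma adjusted p was 0.0406. In that setting 251 of all 13106 shared regions were called higher and 225 lower, against 7 and 39 with every library.

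The local background that the peak caller used around the summits was read back too. It comes from the background library, and the labels do not say whether the same library served all knockout lists. The knockout values may therefore not be independent, and the p-values here cannot be read as tests of 3 separate backgrounds. The median local background over the 45 regions was 2.52 ± 0.37 times the genome background for knockouts and 3.17 ± 0.28 times for controls (SD over 3 libraries, exact permutation p = 0.1), with all knockouts below all controls. The genes differed in this. In Ikzf1 the median local background was 2.99 ± 0.46 times in knockouts and 2.08 ± 0.35 times in controls, with all knockouts above all controls (exact permutation p = 0.1, n = 3 each). In Ikzf3 it was 3.38 ± 0.58 times in knockouts and 5.0 ± 0.20 times in controls, with all knockouts below (exact permutation p = 0.1, n = 3 each). The groups overlapped for Ikzf2, at 1.91 ± 0.51 times in knockouts and 2.61 ± 0.46 in controls, and for Ikzf4, at 9.26 ± 0.39 times in knockouts and 8.32 ± 3.96 in controls. Its part in the coverage of the 4 genes was not tested.

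**Figure D4:**
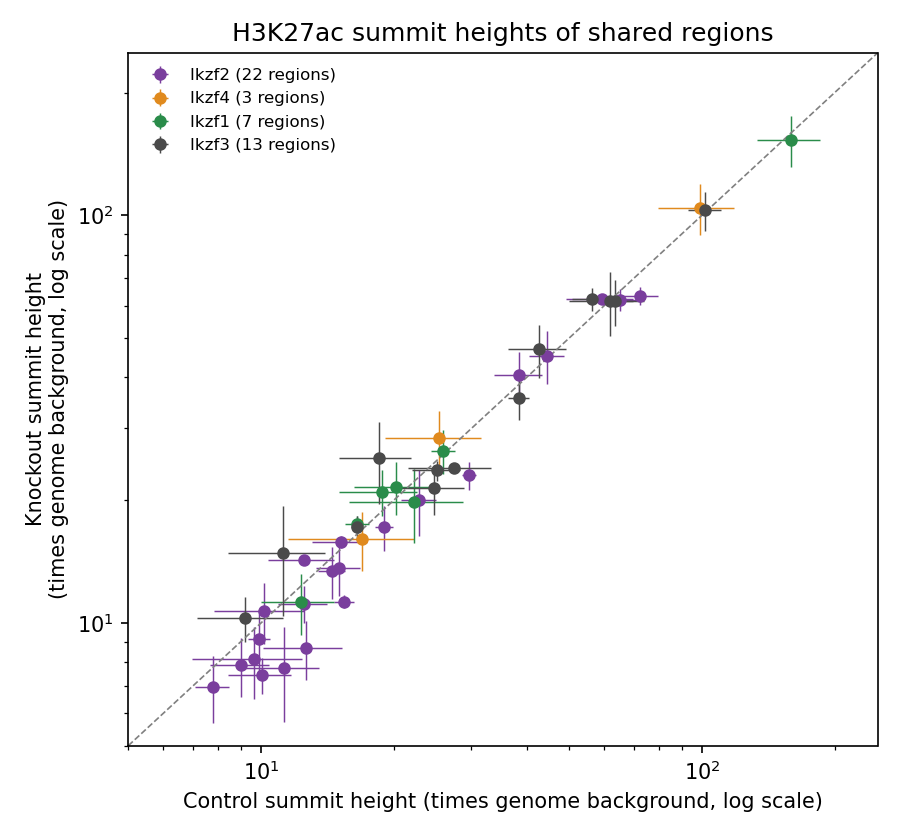
Summit height of the 45 H3K27ac regions found in every library, knockout mean (y axis) against control mean (x axis), both in times the genome background on log scales, with SD over 3 libraries each; colours mark the genes and the dashed line marks equal heights. Regions of all 4 genes lie along the line, from about 7 to 159 times background.

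H3K27me3 peaks were absent from the 4 windows in each of the 4 lists, so covered bases were 0 in knockouts 1 and 2 and 0 in controls 1 and 2 for every gene. With 0 H3K27me3 regions in the windows, no share by pattern can be given for them. Across the genome, 27094 bins of 10 kb held covered bases in any of the H3K27me3 lists. How often windows of like size elsewhere lack the mark was not computed, so the absence is given as a description only. Over all H3K27me3 regions, 6.10% were found in every list, 9.94% in knockouts alone and 0.0426% in controls alone. Those shares rest on the control 1 list with its other threshold. No 10 kb bin of the windows could be tested for this mark. A list shows called peaks alone, and the mark below the calling threshold of a list is not measured. The nearest H3K27me3 peak to the Ikzf2 window lay 288 and 116 kb away in the knockouts, against 402 and 116 kb in the controls. It lay 186 and 186 kb from the Ikzf1 window in the knockouts, against 242 and 180 kb in the controls. The distance from the Ikzf4 window was 233 and 26.7 kb in the knockouts, against 31.4 and 23.2 kb in the controls. From the Ikzf3 window it was 29.5 and 21.6 kb in the knockouts, against 32.7 and 22.2 kb in the controls. The distances of the 2 genotypes overlapped for each gene. With 2 against 2 libraries no exact test can go below p = 0.33.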

How the data were processed

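Sorted cells were profiled by CUT&Tag. Per the submitters' processing notes, reads were handled with Bowtie2 2.2.4 and build mm39; HOMER 4.11, ChIPseeker 1.30.3, deepTools 3.5.1 and MACS2 are also named. The settings and the MACS2 version are not given in the sources used here. The authors deposited 1 peak list per library, with a score per peak, the fold enrichment as a ratio, and p and q values as −log10. These are each peak's own values. In 7 of the 10 lists they gave whole fragment pileups within a relative tolerance of 0.0005, from which depth, background and summit heights were read back, a measure chosen after seeing the data.

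Peaks were clipped to the windows, and overlaps counted from 1 bp. Values of 1 window were compared by two-sided exact permutation tests. Bases per 10 kb bin became log2(bases + 100), were centred on the median and were tested with limma 3.58.1 in R 4.3.3 (trend, robust, Benjamini-Hochberg over all bins). Bins needed a covered base in 3 libraries (2 for H3K27me3), and scripts were tested on simulated data. Text names every bin past the threshold, regions of 1 genotype, and the 3 strongest shared regions of a window; other items were picked after their values were seen. The labels number the chimeras but do not say whether each number is a separate animal. A p-value thus reflects the spread among these samples alone. Members and lists were chosen with earlier results of these data known.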

Additional observations from a re-analysis of the deposited data

How the results depend on the processing

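Bases covered stayed higher in knockouts in each window under each alternative: lists cut to equal length, the strongest 50% of each list, scaling to the list, full-length peaks by summit, and leaving out 1 library. Without 1 library the difference ranged from 9055 to 19011 bases for Ikzf2, 1175 to 2827 for Ikzf4, 2576 to 6974 for Ikzf1 and 2994 to 15029 for Ikzf3. Same-numbered H3K27ac libraries of the 2 genotypes also share a chimera number, and the labels do not say that this pairs them. Their correlation was 0.25 for number 1, the highest of the 9 pairs, but 0.05 and 0.01 for numbers 2 and 3. The last 2 are below the 0.1 asked of every pair, so the numbers were not taken to pair the samples. This does not exclude a pairing. The replicate block cannot change a difference of means in this balanced design (Ikzf2 13064 bases), and its exact sign-flip p was 0.5 for Ikzf2 and 0.25, the smallest possible, for the other genes. Regions with at least 50% covered in every knockout and in no control numbered 3. Controls could still hold shorter peaks there. At chr1:69640479-69641449, a region found in every library, they covered 360, 345 and 362 of 971 bases. The share of all regions under this rule was not computed, so the count of 3 has no background and is not read as a result. Knockout-only regions numbered 0 with the strongest 50% of each list, and 1 to 5 without 1 library. Bins called higher in the windows numbered 1 with quantile normalization and 0 to 1 without 1 library. Summit heights called higher numbered 1 with the replicate block and 0 to 1 without 1 library; under the block it was the Ikzf3 region from 98422500 (adjusted p = 0.00839), and genome-wide the block called 1196 higher and 961 lower, against 7 and 39 without it.

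Genome-wide, bins called lower and higher numbered 435 and 112, against 26 and 4 where 10 bases were added before the log, 619 and 169 where 1000 were added, 269 and 58 unfiltered, 349 and 168 with quantile normalization, 436 and 254 with equal lists, 737 and 207 in 5 kb bins, 211 and 56 in 50 kb bins, 29 and 3 with the block, 0 and 0 without control 2 or control 3, 5 and 3 without control 1, 974 and 245 without knockout 1, 20 and 0 without knockout 2, and 67 and 0 without knockout 3. H3K27me3 calls in the windows stayed at 0 throughout. The median log2 change ranged from -0.026 to 0.26 for bins and from -0.048 to 0.25 for heights without 1 library, and the height median was -0.053 without centring.

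Height changes of single regions reversed near 0. Without centring they were -0.064 (Ikzf2 from 69685915), -0.041 (Ikzf4 from 128467495), -0.053 (Ikzf1 from 11632782) and -0.053 (Ikzf3 from 98372601). With quantile normalization they were -0.015 for that Ikzf2 region, -0.037 for that of Ikzf1 and -0.0028 for that of Ikzf3. Without 1 library the ranges were -0.21 to 0.099 (Ikzf2 from 69579479), -0.069 to 0.21 (69685915), -0.19 to 0.29 (128467495), -0.079 to 0.26 (11632782), -0.085 to 0.39 (11708136) and -0.055 to 0.26 (98372601). The cause was not tested. Limits: peak lists hold no reads, 3 against 3 libraries cannot give an exact p under 0.1, and the background library differed between the genotypes.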
